A study of Rattus norvegicus with 28 samples.

Results

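The step from day 1 to day 2 of life was examined in the terminal ileum of newborn rats (Rattus norvegicus) reared on formula with hypoxia, the regimen used to model necrotizing enterocolitis. The members were chosen by array title: 3 arrays of pups killed on day 2 and 3 arrays of pups killed on day 1, which makes 6 of the 28 arrays of the series. Every one of these pups had been fed formula and exposed to hypoxia 3 times a day, so both days share both agents and neither agent can be separated from the other. Age and time on the regimen go up together from day 1 to day 2, so these cannot be told apart either. The series also holds formula and hypoxia pups of days 3 and 4, breast-fed pups of days 1 to 4 and unfed newborns of day 0. Each array carried total RNA from the removed terminal ileum of 1 pup, so the replicates are separate animals, and different pups were sampled on each day. The day 2 and day 1 arrays of breast-fed pups, 3 each, were used to set the same step of age beside the formula and hypoxia step.

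Necrotizing enterocolitis is an inflammatory disease of the immature bowel, and the terminal ileum is one of its usual sites. In the first days after birth the rat ileum is also changing on its own: milk begins to pass, villus cells take up fat and macromolecules, the crypts are not yet mature, and bile acid uptake is still low. Enzymes that detoxify quinones and aldehydes, metal transporters and the glycolytic genes that respond to low oxygen are known to respond to oxidative and hypoxic stress in many tissues.

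The values are signals, which are deposited probe set intensities after quantile normalisation, and differences are log2 values of the signal plus 8, day 2 minus day 1. Levels of different genes cannot be compared on this scale, because each probe set has its own response. Genes of the ileum or of the intestine in general had signal. Fabp6, the ileal bile acid binding protein, averaged 1040 ± 104 on day 2 and 923 ± 170 on day 1 (SD, n = 3 each), and Fabp2, the intestinal fatty acid binding protein, averaged 5250 ± 488 on day 2 and 5370 ± 864 on day 1. Slc10a2, the ileal bile acid transporter, was dim, at 32.5 ± 19.6 on day 2 and 37.5 ± 21.9 on day 1, close to the signal of 24 that marks the filter on dim probe sets.

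Correlations of log2 signal between arrays ran from 0.94 to 0.96 among the day 2 arrays, from 0.905 to 0.943 among the day 1 arrays and from 0.906 to 0.958 across the days. The ratio of 3′ to 5′ control probe sets, which goes up as RNA is degraded, was 1.06 to 1.12 for GAPDH on day 2 and 1.22 to 1.96 on day 1, with no overlap (two-sided exact permutation p = 0.1, the smallest that 3 arrays against 3 can give). For beta-actin the ratio was 1.16 to 1.42 on day 2 and 1.26 to 4.17 on day 1 (exact permutation p = 0.5), and the highest value belonged to day 1 replicate 2. The GAPDH ratio thus separated the days completely, and the part of RNA integrity in the results that follow was not tested.

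No gene passed the test between day 2 and day 1. By limma, 0 of 3185 genes (0%) had an adjusted p under 0.05, and the smallest adjusted p was 0.184. At an unadjusted p under 0.05 there were 215 genes (6.75%), 108 higher on day 2 (3.39%) and 107 lower (3.36%). The direction of this split rested on the scaling: it was 147 higher and 56 lower with the intensities as deposited, and 62 higher and 140 lower with arrays brought to a common median. The median change over all genes was 0.0055 with quantile normalisation, 0.0888 as deposited and -0.104 with the common median, and the changes below are relative to the first of these.

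The size of what could have been missed follows from the standard errors. On the log2 scale the standard error of a gene was 0.324 at the median, and the median 95% confidence interval reached 1.59-fold to each side of the estimate. For 1835 genes (57.6%) the whole interval lay within a 2-fold difference either way. The estimate itself was beyond 2-fold for 26 genes with more signal on day 2 and 49 with less. In 442 genes (13.9%) the 3 arrays of one day lay wholly apart from the 3 of the other, 245 higher on day 2 (7.69%) and 197 lower (6.19%).

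**Figure D1:**
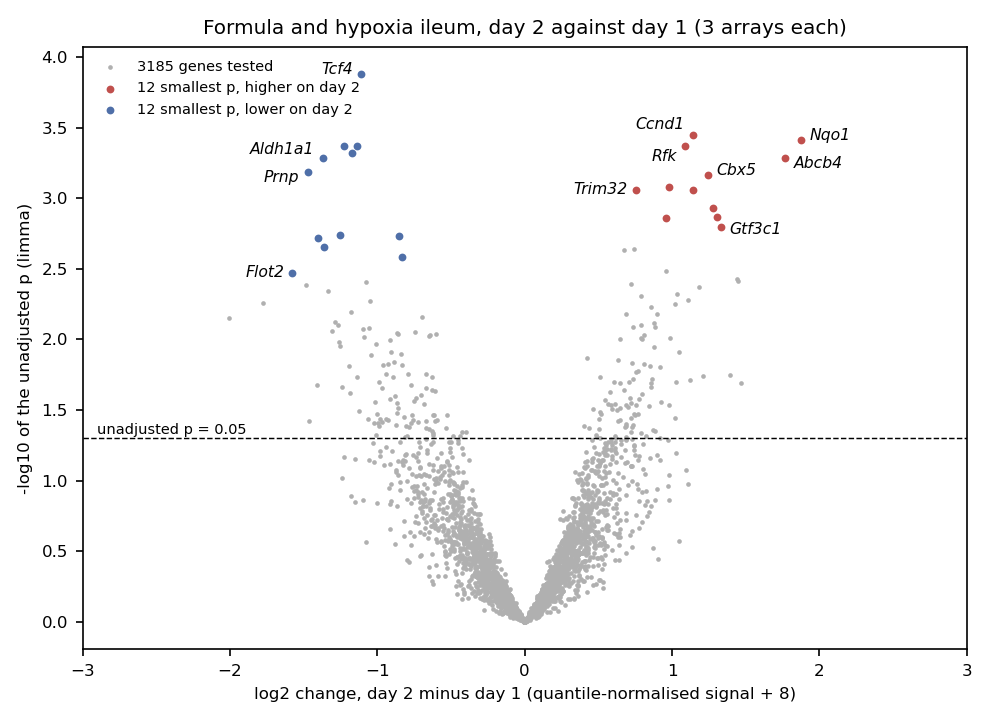
The x axis gives the log2 change, day 2 minus day 1, and the y axis the negative log10 of the unadjusted limma p, with 1 point for each of 3185 genes (3 arrays per day). The 12 genes with the smallest p in each direction are coloured, and none of the 24 passed after adjustment, with adjusted p from 0.184 to 0.397.

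As no gene passed, the 12 genes with the smallest unadjusted p in each direction are described, and none of them is a called change. All 24 had day 2 arrays wholly apart from day 1 arrays, which follows in part from choosing them by p.

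Among genes with more signal on day 2, Nqo1 had the largest difference. Nqo1 encodes NAD(P)H quinone dehydrogenase, an enzyme that reduces quinones and is known as a target of the oxidative stress regulator Nrf2. Its signal was 285, 238 and 443 on day 2, against 57.5, 79.3 and 106 on day 1. The lowest day 2 array thus lay well above the highest day 1 array. The difference was 1.88 ± 0.46 on the log2 scale (SE, n = 3 each), or 3.68-fold with a 95% confidence interval of 0.93 to 2.82 on the log2 scale, and limma gave an adjusted p of 0.184. A further probe set of Nqo1 gave 1.20.

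Abcb4 came next in size. It encodes the transporter that moves phosphatidylcholine into bile in the liver. Its signal was 82.7, 74.5 and 89.1 on day 2, against 14.7, 13.0 and 30.5 on day 1. The day 2 arrays were close together and the day 1 arrays were near the low end of the scale. The difference was 1.77 ± 0.44 (adjusted p = 0.184 by limma), and it is understated by the 8 added to such low signals.

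The promoters of Nqo1, Abcb4 and Aldh1a1 are shown because Nqo1 and Abcb4 had the largest positive differences among the 24 genes and Aldh1a1, described further on, is another detoxifying enzyme with lower signal. Each runs from 250 bases before to 50 bases after the annotated start, 5′ to 3′ on the gene's strand, from RefSeq on the GRCr8 build. Capitals mark matches on either strand to the TATA box (TATAAA), the GC box (GGGCGG) or the CCAAT box.
Nqo1: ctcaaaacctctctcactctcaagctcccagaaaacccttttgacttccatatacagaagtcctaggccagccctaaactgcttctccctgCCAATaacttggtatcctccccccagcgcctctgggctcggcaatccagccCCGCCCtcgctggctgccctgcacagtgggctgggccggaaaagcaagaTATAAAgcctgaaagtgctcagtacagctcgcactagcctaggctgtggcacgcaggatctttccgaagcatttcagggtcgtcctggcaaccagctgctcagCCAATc
Abcb4: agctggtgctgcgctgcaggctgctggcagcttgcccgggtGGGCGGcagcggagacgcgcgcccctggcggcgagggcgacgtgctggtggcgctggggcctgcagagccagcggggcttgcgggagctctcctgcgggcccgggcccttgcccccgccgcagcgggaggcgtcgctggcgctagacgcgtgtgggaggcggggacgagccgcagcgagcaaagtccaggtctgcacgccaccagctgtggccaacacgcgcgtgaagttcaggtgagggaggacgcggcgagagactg
Aldh1a1: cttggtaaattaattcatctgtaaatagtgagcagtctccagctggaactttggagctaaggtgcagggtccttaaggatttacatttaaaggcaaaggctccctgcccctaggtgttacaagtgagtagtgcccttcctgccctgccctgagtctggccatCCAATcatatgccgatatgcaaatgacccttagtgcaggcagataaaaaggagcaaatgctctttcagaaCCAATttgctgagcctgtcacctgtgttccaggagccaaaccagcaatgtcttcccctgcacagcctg

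These windows lie at chr19:52220218-52220517 on the minus strand for Nqo1, chr4:26164096-26164395 on the minus strand for Abcb4, and chr1:227537370-227537669 on the plus strand for Aldh1a1. Their GC content was 56.3%, 74.3% and 48.3% in that order. Nqo1 held 1 TATAAA, 1 GGGCGG on the opposite strand and 2 CCAAT. Abcb4 held 1 GGGCGG and no TATAAA or CCAAT, and Aldh1a1 held 2 CCAAT and neither of the others. Among all 33469 promoters of the table, TATAAA was present in 14.2%, GGGCGG in 33.1% and CCAAT in 37.5%, counting both strands. Among the 2846 promoters of genes tested, TATAAA was present in 10.2%, GGGCGG in 60.8%, CCAAT in 37.5% and TGACNNNGC in 16%, so the GC box was the common case there. The cAMP response element TGACGTCA, present in 1.83%, and the antioxidant response element core TGACNNNGC, present in 12.1%, were not among the letters of the 3 windows. Sequence beyond the windows was not searched, so elements further from the start would not be seen. No matches overlapped. Of the 3185 genes tested, 2632 had an entry in the table.

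Ccnd1, which encodes cyclin D1 and drives entry into the cell cycle, had signals of 180, 169 and 234 on day 2, against 87.6, 74.7 and 86.7 on day 1. Every day 2 array was well above every day 1 array, and the difference was 1.14 ± 0.28 (adjusted p = 0.184 by limma). The 4 other probe sets of Ccnd1 gave -0.02, -0.47, 0.00 and 0.46, so the probe sets disagreed. Spry1, an antagonist of receptor tyrosine kinase signalling, read 137, 162 and 129 on day 2, against 82.8, 71.2 and 53.5 on day 1, without overlap.

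Rfk, which encodes riboflavin kinase, read 151, 110 and 141 on day 2, against 57.8, 59.9 and 56.9 on day 1. The day 1 arrays were nearly equal, and the difference was 1.09 ± 0.27 (adjusted p = 0.184 by limma). Sirt2, an NAD-dependent deacetylase, read 281, 485 and 522 on day 2, against 259, 80.8 and 204 on day 1. Its lowest day 2 array was only just above its highest day 1 array. Aph1a, a subunit of gamma-secretase, read 422, 578 and 580 on day 2, against 231, 261 and 154 on day 1, and its further probe set gave 0.93 beside 1.28. Prr13 read 813, 897 and 990 on day 2, against 466, 412 and 501 on day 1, with little spread in either group.

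The other genes of the 12 were Cbx5, which encodes a heterochromatin protein, Trim32, a ubiquitin ligase, Map1a, a microtubule-associated protein, and Gtf3c1, a subunit of a factor for RNA polymerase III. Their differences were 1.25 for Cbx5, 0.76 for Trim32, 1.14 for Map1a and 1.33 for Gtf3c1. Cbx5 read 3.36 to 8.88 on day 1, below the filter signal of 24. A further probe set of Map1a gave 0.02 and one of Gtf3c1 gave 0.31.

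Among genes with less signal on day 2, Aldh1a1 is an enzyme of retinoid and aldehyde metabolism. It encodes a retinal dehydrogenase that makes retinoic acid and clears aldehydes. Its signal was 250, 191 and 202 on day 2, against 526, 480 and 701 on day 1. The groups were well apart, and the difference was -1.37 ± 0.34 (2.58-fold lower on day 2, adjusted p = 0.184 by limma). Tcf4 had the smallest p of all genes. It encodes a basic helix-loop-helix transcription factor and is distinct from the Wnt effector of the same common name. It read 14.9, 17.1 and 11.3 on day 2, against 37.5, 43.4 and 39.9 on day 1, with a difference of -1.11 ± 0.25 (adjusted p = 0.184 by limma). The day 2 signals lay under the filter level of 24.

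Bcl2l11, which encodes the pro-apoptotic protein Bim, read 47.7, 63.8 and 27.7 on day 2, against 99.9, 194 and 81.2 on day 1. That probe set gave -1.26, while 3 others gave 0.56, 0.65 and 0.08, the opposite sign. Alox15, a lipoxygenase that makes lipid mediators, read 24.5, 25.9 and 24.4 on day 2, against 53.7, 108 and 84.7 on day 1, and its difference was -1.41 ± 0.40. The 3 day 2 arrays of Alox15 sat together near the filter level. A further probe set of Alox15 gave 0.11, so its probe sets disagreed. Fst, which encodes the activin antagonist follistatin, read 11.6, 38.8 and 8.75 on day 2, against 53.7, 48.8 and 65.7 on day 1. That probe set gave -1.36, while a further one of Fst gave -0.17.

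Flot2, which encodes a scaffold protein of membrane microdomains, had the largest difference of the 12, -1.58 ± 0.49, with 35.0, 48.3 and 41.0 on day 2, against 148, 99.5 and 179 on day 1. Its adjusted p was the highest of the 24, 0.397 by limma. The others were Mapt, which encodes tau, at -1.23, Prnp, the prion protein gene, at -1.47, Grk4, a kinase of G protein-coupled receptors, at -1.17, Or10al7, an olfactory receptor gene, at -1.14, Rbmx, an RNA-binding protein of splicing, at -0.85 and Alg10, a glucosyltransferase of glycan assembly, at -0.83. The further probe sets of Mapt gave -0.09 and 0.09 and those of Or10al7 0.53 and -0.45. On day 2, Prnp read 26.2, 26.2 and 4.78, Grk4 16.9, 58.7 and 42.1, and Or10al7 22.2, 22.7 and 34.5. Each of these genes thus had day 2 signal under the filter level of 24. The lowest day 1 array of Alg10, 62.9, was only just above its highest day 2 array, 62.2.

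**Figure D2:**
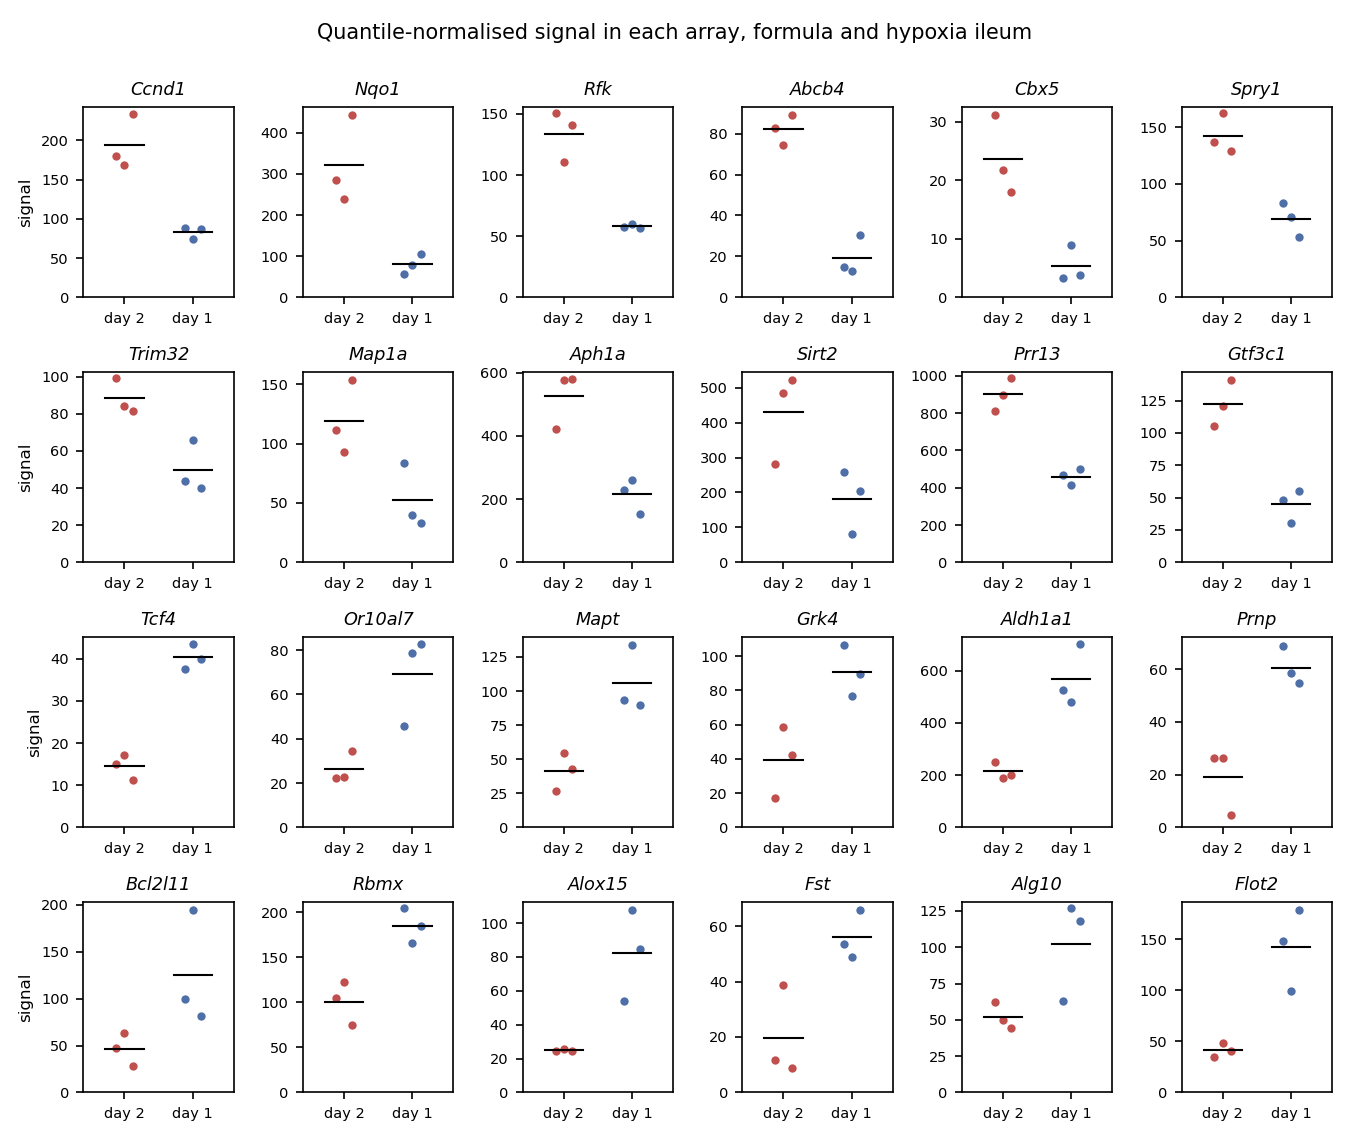
Each panel plots 1 of the 24 genes, with the quantile-normalised signal on the y axis (from 0), day 2 on the left and day 1 on the right, 1 point per array and a line at the mean of 3 arrays. The points of the 2 days are apart in every panel, and the gap is narrow for some, such as Sirt2 with 281 as its lowest day 2 value against 259 as its highest day 1 value.

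The genes were next grouped into 38 lists, 24 of pathways and 14 of cell types. No list held a called member. List medians ran from -0.304 to 0.303, and 21 of the 38 changed sign between the 3 scalings. Of all 3185 genes, 50.7% were above 0 with quantile normalisation, 60.1% as deposited and 38.1% with the common median. Sums of signal over a list lay apart between the days for 4 lists with more signal on day 2 and for 3 with less. Leaving out the 1 member whose mean differed most made the sums of 5 of these 7 lists overlap. For each list the 2 members with the smallest p are named, and a few others are given as values chosen after they were seen. In bulk tissue, fewer cells of a type and less RNA per cell cannot be told apart.

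**Figure D3:**
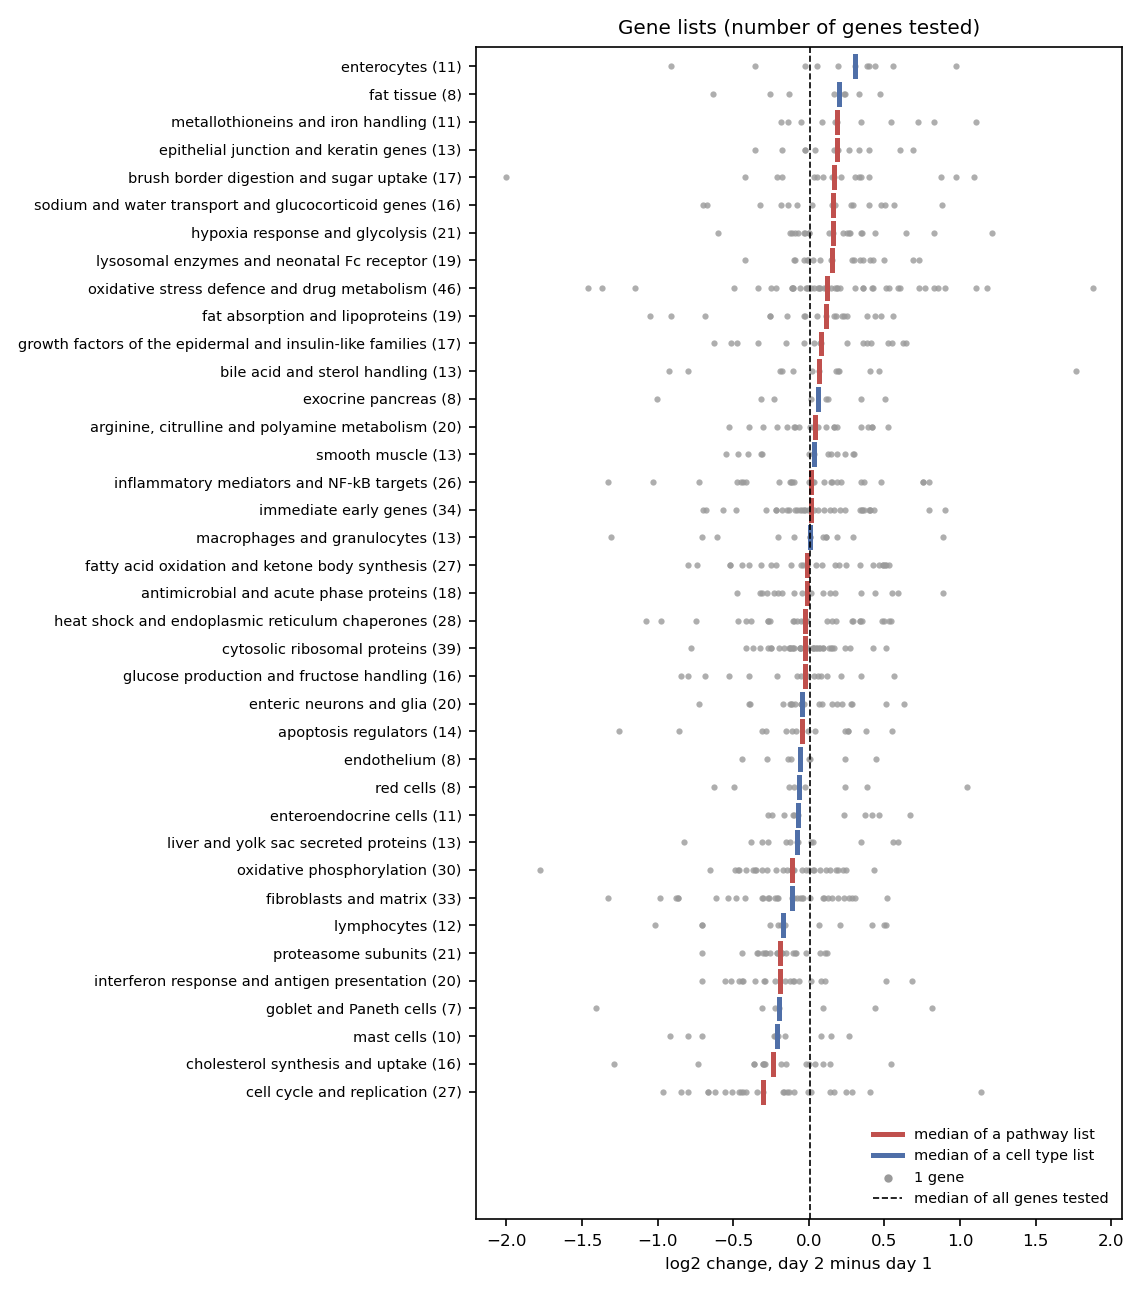
Rows are gene lists with the number of genes tested, the x axis is the log2 change, day 2 minus day 1, and each point is 1 gene. Thick marks are list medians, and the dashed line is the median of all genes at 0.0055. The highest median is that of enterocyte genes at 0.303 and the lowest that of cell cycle genes at -0.304.

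Cell cycle and replication genes had the lowest median. Of 27 tested, 7 were above and 20 below 0, 1 was higher and 2 lower at an unadjusted p under 0.05, and 1 was wholly higher and 6 wholly lower (25.9% without overlap, against 13.9% of all genes). Ccnd1, described above, had the largest value of the 7 above 0. Mcm6, a subunit of the replicative helicase, averaged 146 on day 2 and 237 on day 1, and a difference of -0.67 ± 0.26 did not pass (adjusted p = 0.602 by limma). Pcna, the replication clamp, read 412, 514 and 526 on day 2, against 611, 1531 and 907 on day 1, so the arrays did not overlap but 1 day 1 array, replicate 2, stood far above. The sums of signal overlapped, at 8675 to 11060 on day 2 and 9918 to 11430 on day 1. The median of the list was -0.166 as deposited and -0.354 with the common median, and under breast feeding it was 0.169.

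Proteasome subunits and cholesterol synthesis genes were also lower in value as lists, and their summed signals did not overlap between the days. For the proteasome, 3 of 21 genes were above 0 and 18 below, with a median of -0.188, and sums of 18070 to 19070 on day 2 and 19390 to 22910 on day 1. Psma7 and Psme2, a core subunit and an activator subunit, gave -0.44 and -0.71, and no member had an unadjusted p under 0.05. Without Psma7 the sums overlapped, at 16480 to 17690 on day 2 and 17420 to 20620 on day 1. For cholesterol synthesis and uptake, 5 of 16 were above 0 and 11 below, with a median of -0.237, and sums of 4041 to 4688 on day 2 and 4873 to 6264 on day 1. Idi1, an isomerase of the isoprenoid path, averaged 134 on day 2 and 330 on day 1 with overlap, and Fdft1, squalene synthase, averaged 220 on day 2 and 379 on day 1 without overlap. Without Acat2, the member whose mean differed most, the sums were still apart, at 3197 to 3726 on day 2 and 3831 to 4750 on day 1. Neither Idi1 nor Fdft1 passed, with adjusted p of 0.471 for Idi1 and 0.664 for Fdft1 by limma. The difference of Fdft1 was -0.74, and its 3 other probe sets gave -0.63, 0.07 and -0.02.

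The list closest to the regimen, hypoxia response and glycolysis, had higher summed signals on day 2, 8484 to 9129 against 6611 to 7583 on day 1. Of its 21 genes, 14 were above 0 and 7 below, and the median was 0.157, which turned to -0.00556 with the common median. Aldoa, the glycolytic aldolase, read 552, 676 and 652 on day 2, against 463, 93.0 and 421 on day 1. Its difference of 1.21 was set largely by day 1 replicate 2, the array with the beta-actin ratio of 4.17, and was 0.491 without it. Pdk1, which restrains entry of pyruvate into the mitochondria, was lower in value, 75.6 on day 2 and 119 on day 1. Hmox1, heme oxygenase, averaged 1310 on day 2 and 652 on day 1 without overlap, and the difference of 0.83 did not pass. Without Hmox1 the sums of the list overlapped, at 6847 to 7674 on day 2 and 5833 to 6999 on day 1.

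Oxidative stress defence and drug metabolism, the largest list, held genes with large differences in both directions. Of 46 genes, 31 were above 0 and 15 below, with a median of 0.119 that turned to -0.00859 with the common median, and sums of 33970 to 35610 on day 2 and 29820 to 32650 on day 1. Beside Nqo1 and Aldh1a1, the sulfotransferase Sult1a1 read 340, 190 and 280 on day 2, against 74.4, 101 and 181 on day 1, just without overlap. Another sulfotransferase, Sult1b1, was lower in value, with 251, 175 and 210 on day 2, against 540, 496 and 771 on day 1. Gstp1, a glutathione transferase, averaged 3000 on day 2 and 1510 on day 1 with overlap. Without Gstp1 the sums were still apart, at 31720 to 32050 on day 2 and 28750 to 31450 on day 1. The members of the list thus went both ways.

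Metal handling genes showed the highest share without overlap among pathway lists, 36.4% of 11 genes, 4 higher and 0 lower, against 13.9% of all genes. The 4 were Slc30a1, Slc30a2, Slc40a1 and Hmox1. The sums were 2109 to 4066 on day 2 and 1673 to 2079 on day 1, and without Hmox1, which also sits in the hypoxia and oxidative stress lists, they overlapped at 1298 to 1784 on day 2 and 1088 to 1302 on day 1. The median of 0.187 stayed positive in the 3 scalings. Slc30a1, the zinc exporter, read 93.6, 44.5 and 40.3 on day 2, against 18.8, 19.6 and 26.8 on day 1, a difference of 1.11 ± 0.36 that did not pass (adjusted p = 0.446 by limma). Slc40a1, the iron exporter ferroportin, averaged 272 on day 2 and 159 on day 1.

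Digestive and absorptive genes went both ways. Enterocyte markers had a median of 0.303 over 11 genes with 0% apart, and it turned to -0.0255 with the common median. Alpi, the intestinal alkaline phosphatase of the brush border, averaged 895 on day 2 and 511 on day 1 with overlap. Apoa1, an apolipoprotein of fat export, averaged 7800 on day 2 and 5970 on day 1 with overlap, and its difference of 0.38 turned to -0.0255 with the common median. Ggt1, a brush border peptidase, had the most negative difference of all genes tested, -2.01 ± 0.68, with 90.5, 16.4 and 13.4 on day 2, against 199, 112 and 126 on day 1. It did not pass (adjusted p = 0.471 by limma). Acsl5, an acyl-CoA synthetase of fat absorption, read 930, 708 and 905 on day 2, against 1354, 1468 and 2696 on day 1, and its further probe set gave -1.10 beside -1.05. In bile acid and sterol handling, Nr1h3, the oxysterol receptor, was lower in value beside the higher Abcb4, at 93.0 on day 2 and 172 on day 1.

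Oxidative phosphorylation genes had 11 of 30 above 0 and a median of -0.111. As deposited, 7 of 30 were above 0 with a median of -0.19, and with the common median 2 of 30 were above 0 with a median of -0.397. Cox6c, a subunit of cytochrome oxidase, read 41.8, 107 and 90.8 on day 2, against 148, 881 and 157 on day 1, so that day 1 replicate 2 again stood far above the others, and the difference of -1.78 was -0.955 without it. Atp5pf, a subunit of ATP synthase, gave -0.49. Fatty acid oxidation had a median of -0.00923 over 27 genes. In it, Acadvl and Decr1, both enzymes of the pathway, gave -0.74 and -0.80. In glucose production, Fbp1, fructose bisphosphatase, averaged 97.4 on day 2 and 184 on day 1. Me1, malic enzyme, averaged 62.2 on day 2 and 39.2 on day 1. That probe set gave 0.57, and the 4 others of Me1 gave 0.71, -0.06, -0.50 and 0.25. Cytosolic ribosomal proteins had 17 of 39 above 0 and a median of -0.0258. As deposited, 6 of 39 were above 0 with a median of -0.196, and with the common median 1 of 39 with a median of -0.406. Among all genes, 60.1% were above 0 as deposited and 38.1% with the common median. Among them were Rpl31 at 0.42, which became -0.039 with the common median, and the elongation factor Eef2 at 0.51.

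Inflammatory and immune genes followed, with medians near 0 apart from antigen presentation. Inflammatory mediators had 14 of 26 genes above 0 and a median of 0.0153. Spp1, which encodes osteopontin, read 28.9, 26.5 and 31.2 on day 2, against 97.7, 87.4 and 70.7 on day 1, a difference of -1.33 ± 0.43 (adjusted p = 0.423 by limma). The day 2 arrays of Spp1 lay close together, all under the lowest day 1 array. Ptgs1, the constitutive cyclooxygenase, was 0.80 with overlap. In antigen presentation, 5 of 20 genes were above 0 and 15 below, with a median of -0.192, and Tap1, a peptide transporter, averaged 102 on day 2 and 152 on day 1. RT1-Bb, a class II antigen-presenting chain, averaged 172 on day 2 and 242 on day 1. That probe set gave -0.46, and the 4 others of RT1-Bb gave -0.23, -0.10, -0.37 and 0.28. Immediate early genes had a median of 0.0132, with Cebpd at -0.68 and Nr4a3 at 0.90. Further probe sets gave 0.22 and -0.07 for Cebpd and 0.41 and -0.18 for Nr4a3. Antimicrobial and acute phase proteins had a median of -0.0137, with Hpx, the heme carrier hemopexin, at 0.59 and Rnase4, a secreted ribonuclease, at 0.55.

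The other pathway lists had medians from -0.0432 to 0.185. Chaperones had a median of -0.0241, with Hspa9, the mitochondrial chaperone, at -0.98 and Calr, calreticulin, at 0.50. Further probe sets of Hspa9 gave 0.03 and 0.13, and those of Calr gave -0.10 and 0.44. Apoptosis regulators had -0.0432, with Casp1, the inflammatory caspase, at -0.86 beside Bcl2l11. Without day 1 replicate 2 these genes were -0.358 for Casp1 and -0.908 for Bcl2l11. Sodium and water transport had 0.163, with the water channels Aqp7 at 0.88 and Aqp8 at 0.57, each without overlap between the days. Junction genes had 0.185, or -0.0611 with the common median, with the adhesion protein gene Epcam at 0.69 and Cldn3, a tight junction claudin, at 0.61. Without day 1 replicate 2 these were 0.0633 for Epcam and 0.143 for Cldn3. Growth factors had 0.084, with the receptor gene Igf1r at 0.55 and its adaptor Irs1 at -0.51, lysosomal enzymes 0.152, with the cathepsins Ctsb at 0.69 and Ctsl at 0.42, and arginine metabolism 0.0438, with Cps1, which feeds citrulline synthesis, at -0.53 and Glul, glutamine synthetase, at 0.42. Further probe sets gave 0.02 for Igf1r, -0.19 for Ctsl, 0.16 and -0.52 for Cps1, and 0.06, 0.05 and -0.31 for Glul. Brush border genes, described above by Ggt1 and Alpi, had 0.164 over 17 genes.

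Cell type lists describe what else could vary between the samples. Macrophage and granulocyte genes had summed signals of 4580 to 6574 on day 2 and 3767 to 3986 on day 1, and the median over 13 genes was 0.00598. Lgals3, galectin-3, which gut epithelium also expresses, read 3799, 2634 and 3584 on day 2, against 2031, 1479 and 1878 on day 1, without overlap. Without Lgals3 the sums overlapped, at 1946 to 2775 on day 2 and 1889 to 2424 on day 1. Aif1, a macrophage marker, went the other way, with 10.4, 26.8 and 33.3 on day 2, against 52.6, 100 and 53.0 on day 1. Mast cell genes had sums of 1248 to 1482 on day 2 and 1485 to 2207 on day 1 and a median of -0.213 over 10 genes. The chymases Mcpt1 and Vch averaged 195 and 30.7 on day 2, against 391 and 65.1 on day 1, both with overlap. Their differences were -0.915 for Mcpt1 and -0.796 for Vch, and -0.483 and -0.271 without day 1 replicate 2. Without Mcpt1 the mast cell sums overlapped, at 1127 to 1277 on day 2 and 1260 to 1558 on day 1.

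Fibroblast and matrix genes had 4 members wholly lower and 1 wholly higher of 33 (15.2% without overlap, close to the 13.9% of all genes), with a median of -0.112 and overlapping sums. Beside Spp1, the stromelysin Mmp10 averaged 27.3 on day 2 and 53.9 on day 1. Smooth muscle genes had a median of 0.0322, with Myl9 and Tagln at -0.55 and -0.40. A further probe set gave -0.08 for Myl9 and -0.19 for Tagln. Lymphocyte genes had a median of -0.171, with the B cell gene Cd79b at -1.02 and the T cell kinase Lck at 0.51, and goblet and Paneth cell genes had -0.196, with the mucus proteins Zg16 at -1.41 and Muc13 at 0.82. Enteroendocrine genes had -0.0681, with the hormones Sst at 0.67 and Gcg at 0.46, neurons and glia -0.042, with Gap43 at 0.51 and Rtn1 at 0.63, and endothelium -0.0589, with Flt1 at 0.45 and Pecam1 at -0.44. Genes of tissues near the ileum gave medians of 0.0633 for exocrine pancreas, 0.203 for fat tissue, -0.0798 for liver and yolk sac proteins and -0.0637 for red cells. In these, Cela2a was 0.50, Ctrc -1.01, Fabp4 -0.64, Slc2a4 0.47, Serpina1 0.56, Hbe2 -0.49 and Hbe1 -0.63. The part of cell composition in the results on single genes was not tested.

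Days 3 and 4 of the same regimen were then set beside the step. The pups of those days are other animals, but the genes were chosen by their day 2 and day 1 values, so the counts are a description. Formula and hypoxia day 4 replicate 3 lies in the second accession run, and the other formula and hypoxia arrays lie in the first. Of the 12 genes higher on day 2, 9 had a day 3 and 4 level nearer to day 2 than to day 1 (75%), and of the 12 lower, 2 did (16.7%), against 1613 of 3185 genes (50.6%). Prr13 averaged 460, 900, 949 and 787 on days 1 to 4, and Rfk 58.2, 134, 136 and 122, so both were near their day 2 level on the later days. Nqo1 averaged 81.0, 322, 149 and 199, and Abcb4 19.4, 82.1, 32.2 and 16.2, so day 2 was the highest of the 4 days for each. Aldh1a1 averaged 569, 214, 258 and 218, near its day 2 level on the later days. Tcf4 averaged 40.3, 14.5, 39.3 and 40.7, so day 2 alone was low. The other lower gene with later levels nearer to day 2 was Bcl2l11.

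**Figure D4:**
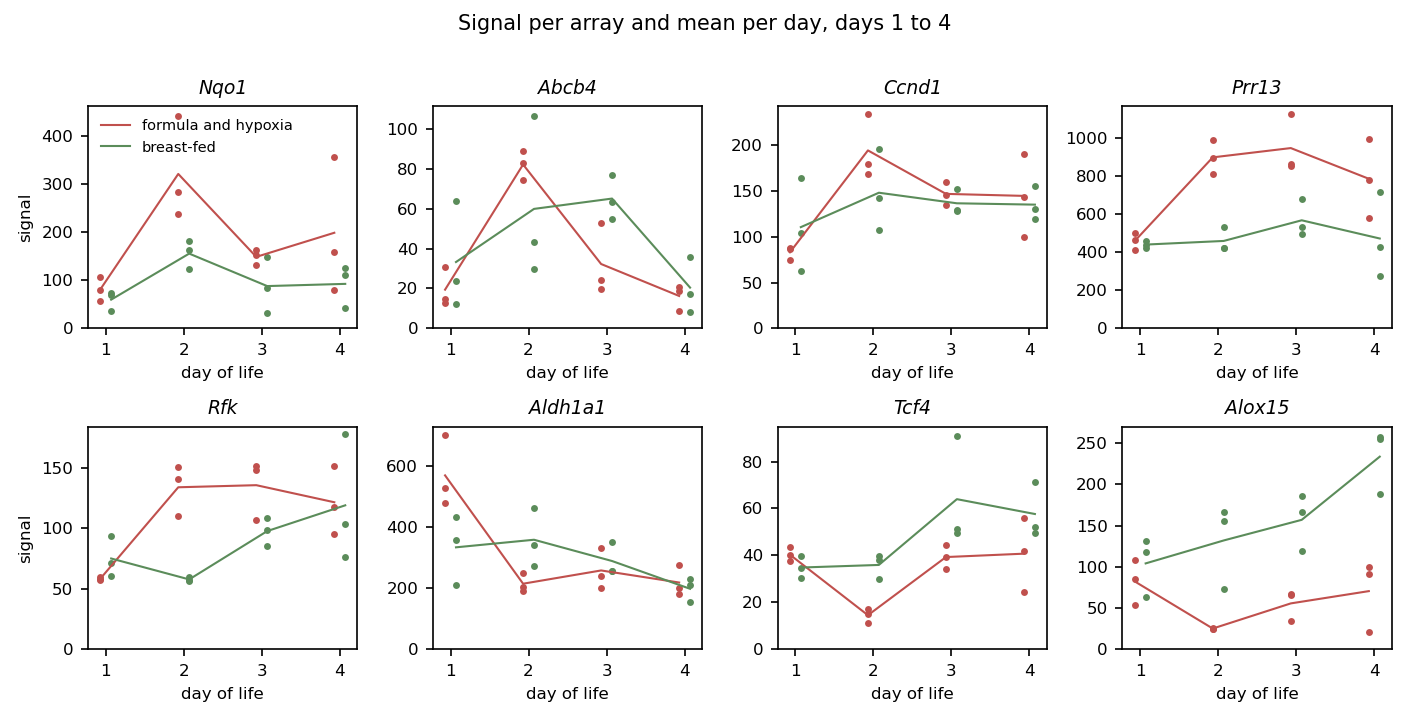
Signals of 8 of the named genes are plotted against day of life (1 to 4), with 1 point per array, lines through the means of 3 arrays, red for formula and hypoxia and green for breast-fed pups. Under formula and hypoxia, Aldh1a1 averages 569 on day 1 and 214 to 258 on the later days, and Tcf4 is low on day 2 alone. Formula and hypoxia day 4 replicate 3 lies in the second accession run. So do breast-fed day 1 replicate 2, day 3 replicate 3 and all day 4 arrays.

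The same step of age under breast feeding gave 1 called gene of 3185 (0.0314%) and 166 at an unadjusted p under 0.05 (5.21%), 94 higher (2.95%) and 72 lower (2.26%), and 383 genes (12%) had arrays apart. The called gene, Fabp5, which encodes a fatty acid binding protein, was higher on day 2 by 1.72 ± 0.31 (adjusted p = 0.0255 by limma), with means of 4075 on day 2 and 1257 on day 1. This call was lost with the common median, with every non-control probe set, with the replicate block, with only the arrays compared, and in 5 of the 6 fits without 1 breast-fed array. Breast-fed day 1 replicate 2 lies in another accession run than the other breast-fed arrays compared. Fabp5 was still called without that array and with the first accession run only. Under formula and hypoxia Fabp5 read 1308, 1459 and 2293 on day 2, against 1459, 1489 and 720 on day 1, with overlap and a difference of 0.49 ± 0.31. The difference between the 2 changes of Fabp5 was -1.22 with a 95% confidence interval of -2.11 to -0.33, and after adjustment over all genes it did not pass (adjusted p = 1.00 by limma).

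Tested for all genes, the difference between the formula and hypoxia change and the breast-fed change passed for 0 of 3185 genes (0%) by limma, and the smallest adjusted p was 1. At an unadjusted p under 0.05 there were 94 (2.95%), 43 above 0 (1.35%) and 51 below (1.6%). The precision of this test was lower, since the median of the standard errors was 0.458, and the interval lay within 2-fold either way for 741 genes (23.3%). Across the 3185 genes, which are not independent, the changes in the 2 regimens correlated with Pearson's r of 0.271 and Spearman's rho of 0.264. The 2 steps share no array, but all arrays were normalised together.

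Of the 24 named genes, 17 (70.8%) had the same sign under breast feeding, 10 of 12 higher and 7 of 12 lower, against 1915 of 3185 genes (60.1%). Nqo1 was 1.31 ± 0.46 under breast feeding, beside 1.88 ± 0.46 under formula and hypoxia, and averaged 156 ± 29.1 on day 2 and 59.9 ± 21.0 on day 1 in breast-fed pups. Abcb4 was 0.76, Ccnd1 0.45, Prnp -0.97 and Grk4 -0.67 under breast feeding, each with the sign of the formula and hypoxia value. Rfk was -0.32, Aldh1a1 0.13, Tcf4 0.04 and Alox15 0.30 under breast feeding, each near 0 or opposite in sign to the formula and hypoxia value. The difference of changes was 1.41 for Rfk, -1.50 for Aldh1a1, -1.15 for Tcf4 and -1.71 for Alox15. None of these 4 differences passed limma's test after adjustment. On days 3 and 4, breast-fed pups averaged 289 and 198 for Aldh1a1, beside 258 and 218 under formula and hypoxia. For Rfk the averages were 97.7 and 119, beside 136 and 122. For Tcf4 they were 64.0 and 57.6, beside 39.3 and 40.7, and for Alox15 157 and 234, beside 55.5 and 70.4.

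**Figure D5:**
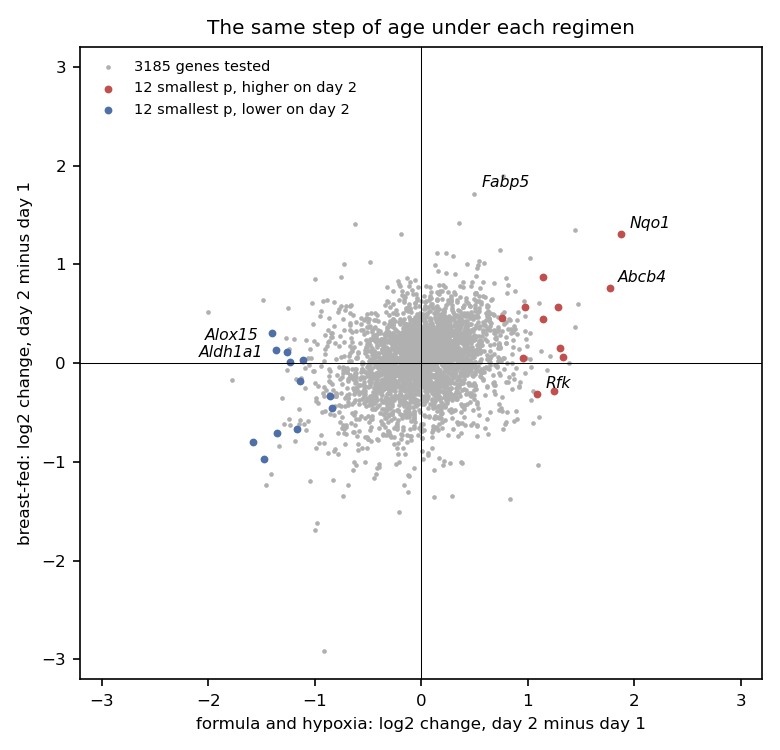
Each point is 1 of 3185 genes, with the log2 change from day 1 to day 2 under formula and hypoxia on the x axis and under breast feeding on the y axis, 3 arrays per group. Nqo1 lies at 1.88 and 1.31, and Fabp5, the gene called under breast feeding, at 0.49 and 1.72.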

How the data were processed

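Total RNA of 28 terminal ilea, 1 pup per array, was measured on an Affymetrix rat array with 8799 probe sets. The deposited values are intensities, 1 per probe set and array, on a linear scale from 0.000562 to 22483. From the values, the authors had scaled 26 of 28 arrays to a 2% trimmed mean near 150; the software and background step behind them: not given in the sources used here. Groups and replicate numbers came from the titles. All 6 formula and hypoxia arrays compared lie in the first accession run of 19 arrays.

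Control probe sets (59) were left out. Of 8740 others, 7006 had 1 gene symbol in the platform annotation, 308 several and 1426 none, and 6985 matched a RefSeq gene. Intensities were quantile normalised, 8 was added and log2 taken. Probe sets with a mean above the 40th percentile (signal 24) were kept, 5244 in all, and the brightest probe set of each gene was tested, 3185 of 4736 genes. limma 3.58.1 in R 4.3.3 fitted 1 mean for each of 9 groups (19 residual degrees of freedom) with an intensity trend. Tests were two-sided and p-values Benjamini-Hochberg adjusted over all genes tested, with a threshold of 0.05. The script was tested on simulated data. The number of arrays limits the precision.

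Named genes were to be called genes with arrays apart and a signal of at least 50, filled to 12 per direction by the smallest unadjusted p; none was called, so all 24 come from the filling. For each list the 2 members with the smallest p were named. The members, gene lists and comparisons were chosen with earlier results of these data known. The alternatives were other scalings, pseudocounts of 2 and 32, other filters, every probe set, fewer arrays, array weights, no trend and a replicate block. The result for the 1 gene called lower without the filter is not reported here.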

Additional observations from a re-analysis of the deposited data

How the results depend on the processing

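Between formula and hypoxia day 2 and day 1, 0 genes were called under every alternative run except 2. Without a filter on dim probe sets, 3 of 4736 genes passed limma's test, and with every non-control probe set, an alternative chosen after seeing the data, 5 of 8740 did. Leaving out each of the 6 arrays in turn gave 0 called, with 169 to 249 genes at an unadjusted p under 0.05. That number was 339 without a filter, 143 with the 60th percentile filter, 360 with 1 test per probe set and 659 with every non-control probe set; these settings test different numbers of features. The smallest adjusted p was 0.0556, with array weights, among the fits that called none.

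Replicate numbers did not pair the samples: the deviations of day 2 and day 1 arrays with the same number correlated at -0.273, 0.0196 and -0.128. With the replicate number as a block, 0 genes were called and 244 had an unadjusted p under 0.05.

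Under breast feeding the 1 called gene became 0 with the common median, 3 with array weights and 0 with every non-control probe set, and leaving out 1 breast-fed array at a time gave 0 to 2. Only the fit without day 1 replicate 2 gave 2, and the other 5 gave 0. With the replicate block, and with only the arrays compared, the called gene was Fabp1 in place of Fabp5. The difference of the 2 changes had 0 called genes throughout. The causes were not tested.

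Of 91 named genes, 88 kept their sign in all of the 19 alternatives that tested them, and 0 were called in any. The 60th percentile filter tested 2213 genes, and named genes too dim for it were not checked under it. Apoa1 turned to -0.0255 and Rpl31 to -0.039 with the common median, and Pecam1 gave -0.71 to 0.0013 with 1 array left out, turning sign without formula and hypoxia day 2 replicate 3. Without formula and hypoxia day 1 replicate 2, Sirt2 went from 1.3 to 0.829, Alpi from 0.972 to 0.472 and Ptgs1 from 0.797 to 0.416. Gap43 went from 0.509 to 0.19 and Slc2a4 from 0.471 to 0.0953. Other genes moved away from 0, such as Trim32 from 0.757 to 0.948 and Cd79b from -1.02 to -1.48. Of the 24 genes with the smallest p, 0 moved by over 1.5-fold without that array. Their days lay wholly apart, so leaving out 1 array could not turn their sign. Choosing by small p in these same arrays also favours little spread, so this count is a description. The 3 pups per day limit the precision.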

Other observations

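Testing dim genes as well called 3 genes between formula and hypoxia day 2 and day 1, 2 higher and 1 lower on day 2. The 2 higher ones are described here, chosen after their values were seen. Folh1, a folate hydrolase of the brush border, read 17.0, 9.44 and 21.0 on day 2, against 4.56, 2.39 and 1.36 on day 1, with a difference of 1.12 and an adjusted p of 0.0369 by limma. Stat4, a transcription factor of interleukin signalling, read 19.5, 19.3 and 22.3 on day 2, against 2.96, 2.39 and 3.71 on day 1, with a difference of 1.36 and an adjusted p of 0.0403. The days did not overlap for either gene. Their means over all arrays, 11.1 for Folh1 and 6.36 for Stat4, lie under the filter signal of 24.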
